A study of Mus musculus with 3 samples.

Results

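Promoter regions that held no CpG island were examined in a map of H3K27ac, the acetylation of histone H3 at lysine 27 that marks promoters and enhancers in use, in mouse myeloid-derived suppressor cells (MDSC). Of 22399 regions in the deposited table, 11629 held at least 1 gene promoter by the authors' count, and the 3631 of these with a CpG island count of 0 are described here. They made up 31.2% of the promoter regions and 16.2% of all regions. Membership rested on the deposited promoter and CpG island counts and on no signal.

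The mark was measured by ChIP-seq, in which antibody-bound chromatin fragments are sequenced, in cells sorted from tumours as CD45+ CD11b+ Ly6C+ Ly6G+/- F4/80-. The hosts were female SCID.beige mice aged 6-8 weeks, an immunodeficient strain that lacks mature T and B cells and has impaired natural killer cells. They carried MDA-MB-231-X1.1 (a human breast cancer line) or CT26 (a mouse colon carcinoma line) per the growth protocol, while the titles of both ChIP libraries read tnbc. The vehicle group received the carrier and the inhibitor group 25 mg/kg GNE-781, an inhibitor of the bromodomain of the acetyltransferases CBP and EP300, at 2 doses a day for 7 days. There was 1 library per group, and the number of mice behind each is not stated in the sources used here. No difference below therefore has a replicate check, and none was tested.

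CpG islands are stretches of DNA that keep a high density of CpG dinucleotides. Most housekeeping and many developmental genes start in one, whereas promoters without an island tend to serve genes used in few cell types, many of them in immune cells. CBP and EP300 are the main enzymes that place H3K27ac. Their bromodomain binds acetylated lysines, and GNE-781 occupies that domain and not the catalytic site.

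The CpG content of the starts themselves was read from RefSeq promoter windows (assembly GRCm38.p6), which run from 250 bases before a gene's start to 50 bases after it. The regions without an island held the start of 1177 such windows, of 1036 genes. Only the start had to lie in the region, so a window could run past the region's edge. The median GC content of these windows was 54.0% and their median CpG observed over expected was 0.39. The 7437 windows that started in promoter regions with an island had medians of 62.7% and 0.83. All 32851 windows of the table had medians of 52.7% and 0.38. A ratio of 0.6 or more, a usual criterion for an island, was reached by 26.2% of the windows at regions without an island, against 87.4% at regions with one and 35.8% of all windows. An island count of 0 thus did not exclude a CpG-dense window around a start, as the plot of CpG content shows. Part of such a window can lie outside the region that was counted.

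**Figure D1:**
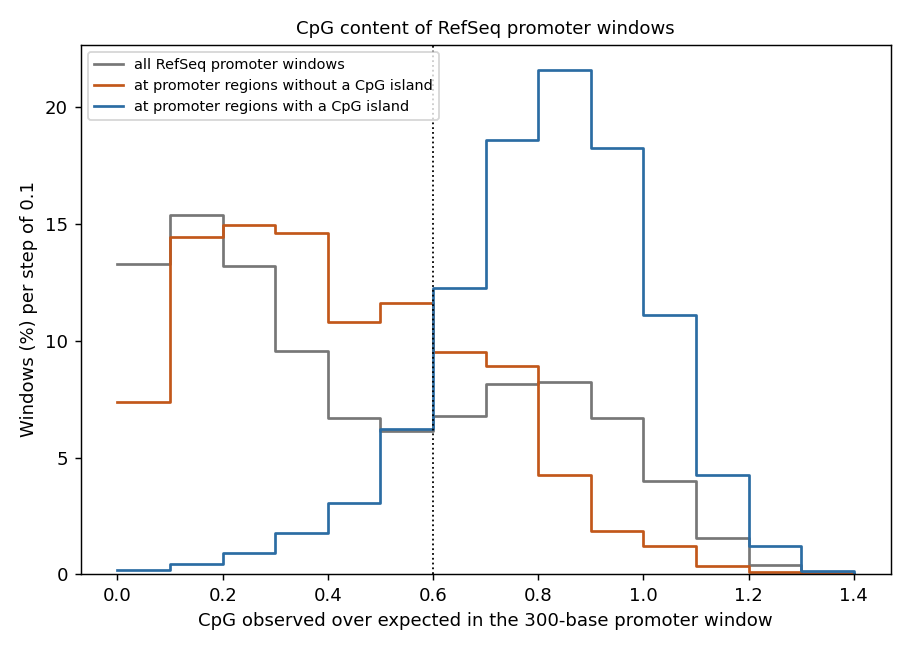
Distribution of CpG observed over expected (x axis, no unit) in 300-base RefSeq promoter windows, as the percentage of windows per step of 0.1 (y axis). The orange line gives windows whose start lay in promoter regions without a CpG island, the blue line those with one and the grey line all windows. Of the orange distribution, 26.2% lies at or beyond the dotted line at 0.6.

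The promoter windows below show what these starts look like, with every CpG in capitals. The first 4 belong to the region of strongest vehicle signal in their gene list among those with a spanned start and a RefSeq sequence. Ncoa1 and Rwdd3 had the largest and the smallest difference in signal among such regions of at least median vehicle signal. Each is printed 5′ to 3′ along the gene.
S100a6, chr3:90612644-90612943, plus strand: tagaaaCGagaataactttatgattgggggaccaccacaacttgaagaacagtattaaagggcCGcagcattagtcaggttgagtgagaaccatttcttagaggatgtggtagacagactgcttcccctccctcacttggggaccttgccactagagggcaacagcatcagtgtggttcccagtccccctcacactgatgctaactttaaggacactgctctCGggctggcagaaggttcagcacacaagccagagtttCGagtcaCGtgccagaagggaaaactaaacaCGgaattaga
Tnfrsf1a, chr6:125349473-125349772, plus strand: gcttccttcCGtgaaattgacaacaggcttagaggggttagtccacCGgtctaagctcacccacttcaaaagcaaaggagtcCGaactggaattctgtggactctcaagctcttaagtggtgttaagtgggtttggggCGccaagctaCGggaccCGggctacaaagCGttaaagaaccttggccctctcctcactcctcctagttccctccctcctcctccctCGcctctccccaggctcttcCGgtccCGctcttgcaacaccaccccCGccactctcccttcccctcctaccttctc
Fcer1g, chr1:171234300-171234599, minus strand: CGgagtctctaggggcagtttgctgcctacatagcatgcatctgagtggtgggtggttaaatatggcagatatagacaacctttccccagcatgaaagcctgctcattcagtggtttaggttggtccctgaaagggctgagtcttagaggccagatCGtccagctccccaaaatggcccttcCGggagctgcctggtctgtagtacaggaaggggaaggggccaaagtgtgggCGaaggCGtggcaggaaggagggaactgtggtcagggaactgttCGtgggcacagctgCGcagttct
Isg20, chr7:78913174-78913473, plus strand: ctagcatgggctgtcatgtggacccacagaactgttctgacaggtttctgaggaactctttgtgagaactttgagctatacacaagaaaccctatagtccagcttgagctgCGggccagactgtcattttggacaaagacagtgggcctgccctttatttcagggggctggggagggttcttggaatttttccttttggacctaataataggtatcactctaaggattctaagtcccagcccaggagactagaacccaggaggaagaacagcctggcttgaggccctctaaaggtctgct
Ncoa1, chr12:4477133-4477432, minus strand: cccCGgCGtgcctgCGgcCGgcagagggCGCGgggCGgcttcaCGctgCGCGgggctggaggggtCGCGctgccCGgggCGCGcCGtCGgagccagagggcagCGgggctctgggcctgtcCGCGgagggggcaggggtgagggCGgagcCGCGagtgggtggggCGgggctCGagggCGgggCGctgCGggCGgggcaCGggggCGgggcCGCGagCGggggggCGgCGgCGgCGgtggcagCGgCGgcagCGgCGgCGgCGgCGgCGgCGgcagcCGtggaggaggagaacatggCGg
Rwdd3, chr3:121171646-121171945, minus strand: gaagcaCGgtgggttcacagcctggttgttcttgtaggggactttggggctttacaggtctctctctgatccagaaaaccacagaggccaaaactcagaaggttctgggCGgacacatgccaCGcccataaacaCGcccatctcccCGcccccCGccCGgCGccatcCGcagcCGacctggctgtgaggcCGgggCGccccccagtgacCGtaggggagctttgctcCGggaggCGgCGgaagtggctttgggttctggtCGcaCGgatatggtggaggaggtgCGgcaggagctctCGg
The printed window of Isg20, an exonuclease gene of the interferon response, held 1 CpG. It was 1 of 3 windows that started in this region, whose highest observed over expected ratio was 0.289. The window of the calcium-binding protein gene S100a6 held 6 and that of Fcer1g, which encodes the shared signalling chain of Fc receptors, held 7. The window of Tnfrsf1a, a receptor for tumour necrosis factor, held 11. By contrast, the window of Ncoa1, a nuclear receptor coactivator gene, held 49 CpGs at a GC content of 84.7%. Its observed over expected ratio was 1.04. The region of Ncoa1, 369 bp long, was deposited with an island count of 0. It covered only part of this window, ending at position 4477233. The window of Rwdd3 held 20 CpGs at a ratio of 0.65.

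Regions that held the start of a CpG-dense window did not stand apart in signal. The 267 members with a window at 0.6 or above had a median average signal of 15.8 with vehicle and 4.71 with inhibitor. The 736 members whose windows all lay under 0.6 had medians of 16.1 and 4.85. The median log2 differences were -1.62 and -1.69.

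Short motifs were counted in the same windows on both strands, the TATA box only in the 50 bases before the start and on the gene's strand. The ETS core GGAAGT, read by PU.1 and its relatives, was in 36.1% of the windows at regions without an island, in 31.5% at regions with one and in 23.8% of all windows. The interferon-stimulated response element (GAAA, any 2 bases, GAAA) was in 7.82%, 2.55% and 3.44% of them. The C/EBP motif TTGNGNAA was in 16.7%, 8.89% and 13.3%, and the AP-1 motif TGANTCA in 9.86%, 3.68% and 7.81%. The STAT motif TTCNNNGAA was in 10.1%, 5.96% and 8.30%, and the NF-kB-like motif (GGG, any 3 bases, TTCC) in 8.33%, 6.44% and 5.56%. The order turned for the cyclic AMP response element TGACGTCA, which contains a CpG and was in 2.55%, 4.06% and 1.79%. TATAAA was in 1.95%, 1.02% and 2.63%. In regions without an island, the interferon and cyclic AMP elements went with the strongest signal and the most negative difference. The 92 windows with the interferon element had a median vehicle signal of 19.1 and a median log2 difference of -1.82. The 1085 without it had 16.0 and -1.67. The 30 windows with the cyclic AMP element had 18.6 and -1.80. Members in the vehicle class that includes 19.1 had a median of -1.79. At regions with an island, windows with the interferon element had 21.8 and -1.82, and those without it 21.5 and -1.80. Those with the cyclic AMP element had 25.6 and -1.92.

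The signal of a region is the number of overlapping fragments, averaged over the region or taken at its highest point. In the regions without an island the average signal had a median of 13.4 with vehicle and 4.30 with GNE-781, and the peak signal medians of 25 and 9. Differences are given as log2 of the inhibitor average plus 1 minus log2 of the vehicle average plus 1. Their median was -1.57, with quartiles of -1.82 and -1.32. Signal was lower with inhibitor in 3621 of the 3631 regions (99.7%). It was at least 2-fold lower on this scale in 3386 (93.3%), against 93.4% of all regions of the table. It was at least 2-fold higher in 2 of the 3631, against 31 of all 22399 regions (0.138%). A region entered the table through an interval called in at least 1 library, and 3612 of the 3631 had a vehicle call. This selection favoured regions of high vehicle signal, so the shares with a lower signal were partly set by it.

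The difference was thus of the size seen across the whole table, whose median was -1.61. When this shared shift was subtracted, 9 regions (0.248%) were at least 2-fold lower, against 0.371% of all regions. Another 29 (0.799%) were at least 2-fold higher, against 0.826%. Whether the deposited values carry a scaling by the added Drosophila chromatin is not known, so the size of the shared shift cannot be told apart from a scaling difference between the libraries. In cells measured in bulk, less of the mark per cell and fewer cells that carry it cannot be told apart either.

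**Figure D2:**
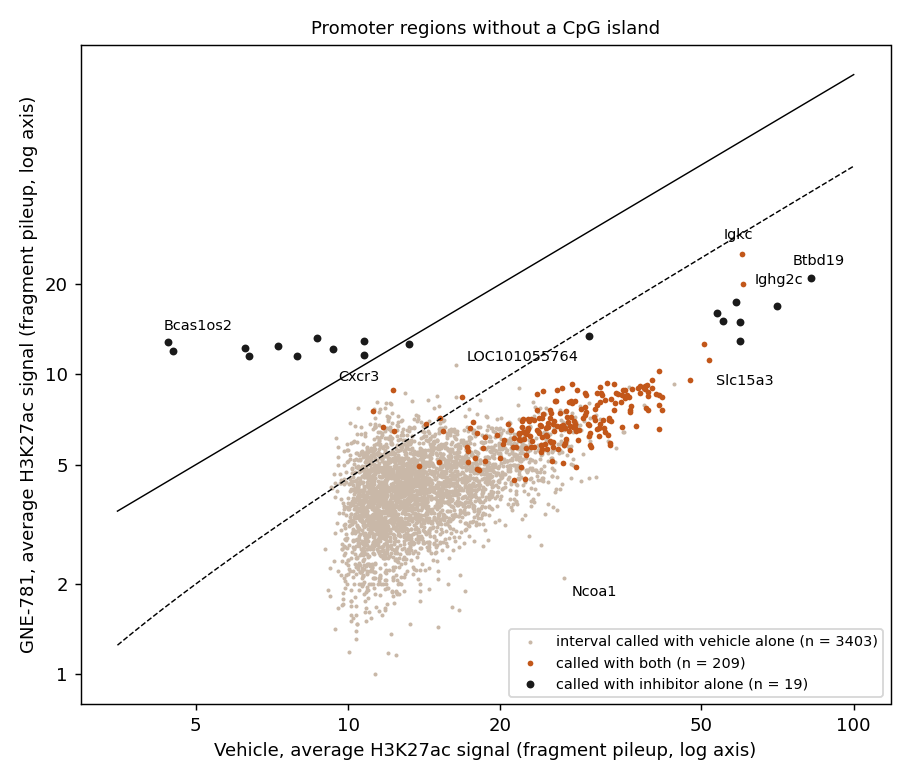
Average H3K27ac signal (fragment pileup) of the 3631 promoter regions without a CpG island with vehicle (x, log axis) and GNE-781 (y, log axis), 1 point per region and 1 library per axis. The solid line marks equal signal and the dashed line a 2-fold lower signal after adding 1; nearly all regions lie below the solid line, and those called in both libraries (orange) lie towards high vehicle signal.

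An interval had been called by the authors in the vehicle library in 3612 of the regions and in the inhibitor library in 228 (6.28%). Of all regions of the table, 10.3% had an interval called with inhibitor, and of the 7998 promoter regions with a CpG island 19.9% did. Intervals were called in both libraries in 209 regions, with vehicle alone in 3403 and with inhibitor alone in 19. The 209 regions called in both were strong and long, with median averages of 26.9 and 6.82 and a median length of 4034 bp. Those called with vehicle alone had medians of 13.2, 4.20 and 1288 bp.

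Signal and calls differed between regions by their position relative to the gene start. The authors' promoter count was recovered for all 11629 promoter regions by counting genes whose window from 7500 bp before to 2500 bp after the start overlapped the region, so a member need not cover a start. The start was spanned by 1309 regions, 1603 lay upstream of it and 719 downstream. The start-spanning regions had median signals of 16.0 with vehicle and 4.79 with inhibitor and a median log2 difference of -1.66. The upstream regions had 12.7, 4.06 and -1.54, and the downstream regions 12.3, 4.12 and -1.47. An inhibitor interval was called in 12.6% of the start-spanning, 2.62% of the upstream and 2.92% of the downstream regions. The start-spanning regions therefore held 165 of the 228 calls. Their median length was 1623 bp, against 1241 bp upstream and 1100 bp downstream. A longer region is more likely to cover a start, and the part of length in these values was not tested.

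At the upstream edge of the promoter window, values inside and outside were close. The 96 members that reached no further than 500 bp into its upstream end had median signals of 12.8 and 4.06. The 96 regions without a promoter or island that ended within 500 bp outside it had medians of 12.6 and 4.29.

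**Figure D3:**
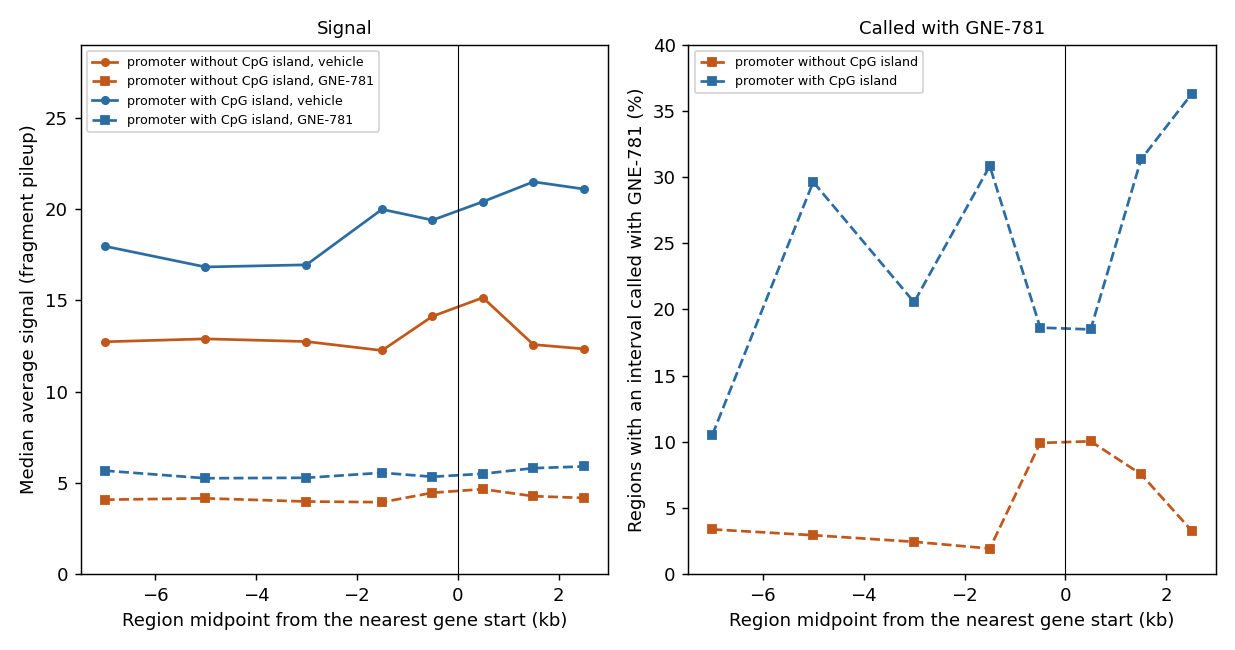
Left, median average signal (fragment pileup) of promoter regions without (orange) and with (blue) a CpG island by the distance of the region's midpoint from the nearest gene start, with vehicle (circles, solid) and GNE-781 (squares, dashed). Right, the percentage of the same regions with an interval called with GNE-781; in regions without an island it is near 10% within 1 kb of the start and under 4% beyond 2 kb.

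Promoter regions with a CpG island were stronger, with median averages of 20.2 with vehicle and 5.49 with inhibitor, and their median log2 difference was -1.77. The median of the regions without an island was thus 0.20 less negative. A gene start was spanned by 6846 of the 7998 regions with an island, but by 1309 of the 3631 without one. Among start-spanning regions, those with an island had medians of 20.9 with vehicle and 5.58 with inhibitor, and those without one 16.0 and 4.79. Their median log2 differences were -1.79 and -1.66, and 21.4% and 12.6% had an inhibitor interval. The part of position in the gap between the kinds was not tested. The order of the medians without and with an island depended on the signal used to match the regions. When all regions were divided into 10 classes of vehicle signal, the median without an island minus that with one ran from -0.25 to -0.04 in the 8 weaker classes and was 0.02 and 0.08 in the 2 strongest. The mean of these class differences, weighted by the regions without an island, was -0.12. Within classes of mean signal it was -0.015, with a range from -0.04 to 0.10. Within classes of inhibitor signal, chosen after seeing the data, it was 0.29, and the regions without an island were the less negative in all 10 classes, by 0.20 to 0.39. The share with an inhibitor interval also turned with signal. It was lower in the regions without an island in the 8 weaker vehicle classes and higher in the 2 strongest. The weighted mean difference was -0.16 percentage points. It was 0.98 within classes of mean signal and -0.67 within classes of inhibitor signal, so its sign depended on the matching. In the weakest vehicle class the share was 2.02% without an island and 5.88% with one. In the strongest vehicle class, an inhibitor interval was called in 72.0% of the regions without an island and 57.8% of those with one, and their median lengths were 3601 and 2104 bp. The part of region length in this was not tested.

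The 10193 regions with neither a promoter nor an island had median signals of 12.8 and 4.23 and a median log2 difference of -1.51. The median of the promoter regions without an island minus theirs was -0.05, and -0.02 as the weighted mean within classes of vehicle signal or of mean signal.

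**Figure D4:**
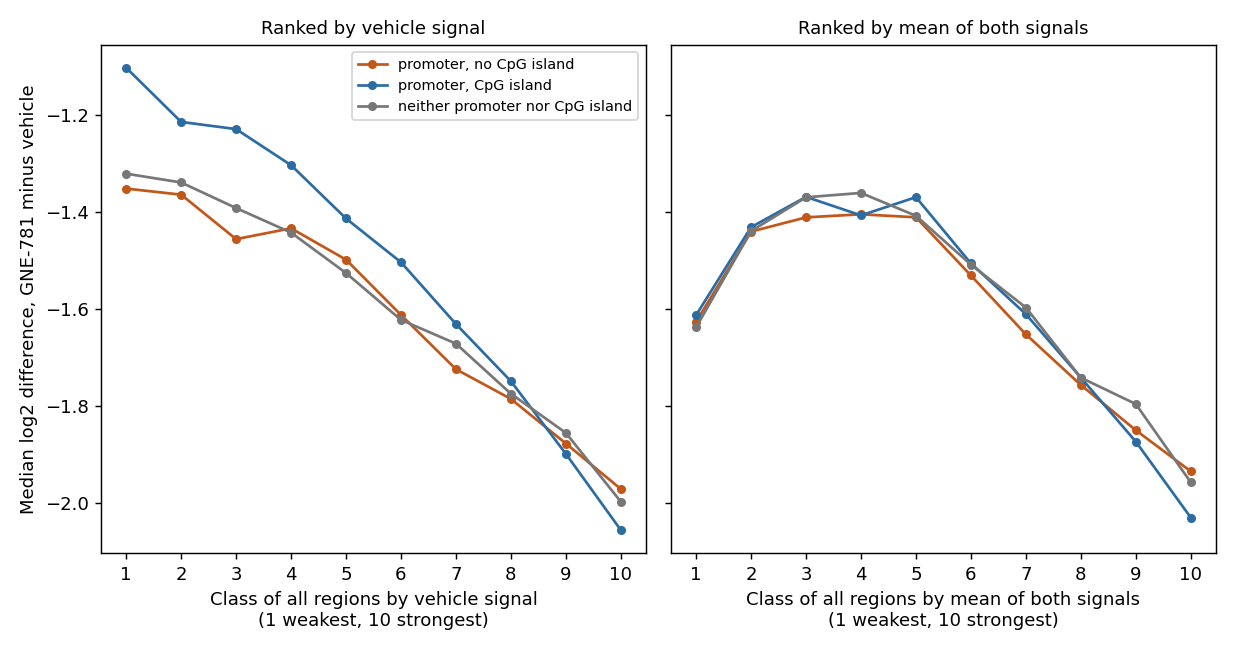
Median log2 difference in H3K27ac signal, GNE-781 minus vehicle (y axis), in 10 classes of all regions by vehicle signal (left) or by the mean of both libraries (right), for the kinds of region named in the key. In the left panel promoter regions with a CpG island (blue) lie above those without (orange) in classes 1 to 8; in the right panel the lines run within 0.10 of each other.

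The 3631 regions served 3280 genes in 4353 pairs of a region and a gene. Of these genes, 1868 had no promoter region with an island in the table and 1412 had both kinds. The 1868 amounted to 16.6% of the 11227 genes with any promoter region. Of the 3151 genes matched to the reference table, 86.9% were protein coding, 7.74% were long non-coding RNA genes and 71 (2.25%) were microRNA genes. Of the 10935 matched genes with any promoter region, the shares were 91.0%, 5.81% and 1.26%. All 20 immunoglobulin or T cell receptor segments with a promoter region were among the genes served by regions without an island. Within the 1412 genes with both kinds, the strongest region without an island had medians of 13.04 with vehicle and 4.16 with inhibitor, and the strongest with an island 22.7 and 6.00. The region without an island was the stronger in 202 of them. A region without an island spanned the start in 144 of the 1412 genes, and in the others it lay upstream or downstream.

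Immune effector genes were served mostly by these regions, and general or regulatory genes were not. Of 41 lectin, Fc and immunoglobulin-like receptor genes with a promoter region, 39 had only regions without an island. The counts were 51 of 59 for the interferon response, 28 of 35 for granule and alarmin proteins and 20 of 27 for chemokines and cytokines. They were 23 of 33 for innate sensors and the inflammasome, 38 of 59 for leukocyte adhesion, surface and signalling genes, 16 of 27 for antigen presentation, and 23 of 39 for cytokine and chemoattractant receptors. Only 7 of 56 myeloid transcription factors and 3 of 38 ribosomal and housekeeping genes had regions without an island alone. Over all genes the share was 16.6%.

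**Figure D5:**
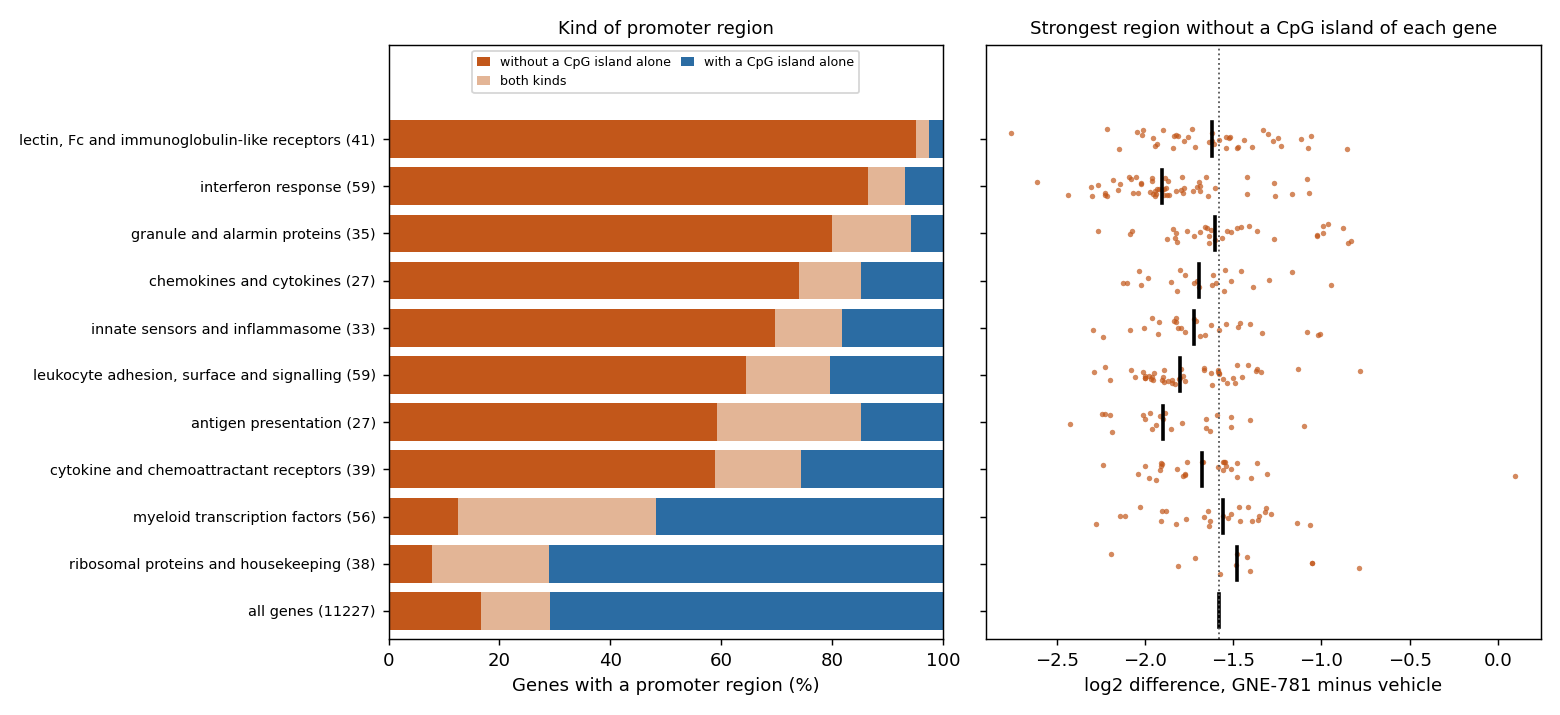
Left, genes of each list (number with a promoter region in brackets) by the kind of promoter region they had, in percent. Right, log2 difference in H3K27ac signal, GNE-781 minus vehicle, of the strongest region without a CpG island of each gene (1 point per gene), with black bars for list medians and a dotted line at -1.58, the median of all genes with such a region; the interferon list lies furthest to the left.

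For each gene below, the value is that of its region without an island with the highest mean signal. Over the 3280 genes this gave medians of 14.1 with vehicle and 4.49 with inhibitor, a median log2 difference of -1.58, and an inhibitor interval for 8.35%. Of the 3280 genes, 3055 (93.1%) were at least 2-fold lower, and the counts of each list below stand against that share, from which they were not tested to differ.

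Genes of the interferon response, which are switched on through STAT and IRF factors, had the most negative median of the lists of effector genes, -1.91, over 55 genes, and all 55 were at least 2-fold lower. Their median signal was 19.8 with vehicle and 4.87 with inhibitor. Members without an island in the vehicle class that includes 19.8 had a median of -1.79. Isg20 was strongest, with 41.7 with vehicle and 8.39 with inhibitor, a log2 difference of -2.18. Oas1a, which makes the second messenger that activates RNase L, had the largest difference, from 22.8 to 2.89 (-2.61), and its relative Oasl1 the smallest, from 13.04 to 5.68 (-1.07). Isg20 had the highest of these 3 inhibitor signals, and Oas1a, second with vehicle, ended lowest.

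Of the interferon genes, 17 (30.9%) had an interval called with inhibitor. They included Gbp7 (37.2 with vehicle, 6.74 with inhibitor), a guanylate-binding protein, and Bst2 (36.3 and 7.84), the virus-tethering protein tetherin. Among transcription factors of the response, Irf7 had 35.4 and 8.36 and Irf9 31.8 and 8.55. Irgm1, Mx2, Oas1b, Oas2, Oas3, Xaf1, Zbp1, Ifi27, Ifitm2, Slfn2, Slfn4 and Slfn5 were the others, all between 17.95 and 35.6 with vehicle and between 4.82 and 9.37 with inhibitor.

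Antigen presentation genes had a median of -1.90 over 23 genes, all at least 2-fold lower, and 7 of the genes were called with inhibitor through 6 regions. H2-T22, a non-classical class I molecule, had 47.4 with vehicle and 9.60 with inhibitor. B2m, the light chain shared by class I molecules, had 41.2 and 7.93, and the further class I genes H2-T23 and H2-T24 had 37.8 and 8.68, and 29.2 and 7.16. The region of Cd274, which encodes PD-L1, had 24.1 and 5.53 and was called in both libraries. Cd74, the invariant chain of class II, had the largest difference of the list in average signal, from 22.1 to 3.29 (-2.43). This region did not span the start, its midpoint lying 1969 bp downstream. Its peaks were 40 and 12, a log2 difference of -1.66. Cd1d1, which presents lipids, had the smallest difference in average signal, from 12.0 to 5.07 (-1.10). Psmb8, an immunoproteasome subunit, and Tap2, a subunit of the peptide transporter, shared 1 region of 19.7 and 6.26 that was called in both.

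Leukocyte adhesion, surface and signalling genes had a median of -1.80 over 47 genes, of which 46 were at least 2-fold lower. Cd52 was strongest at 36.0 with vehicle and 8.38 with inhibitor, followed by the lysosomal membrane protein gene Laptm5 at 33.9 and 8.70. The signalling genes Vav1 (28.2 and 6.82), Dock2 (26.9 and 5.92) and Rac2 (22.1 and 6.70) were called in both libraries, as were Cd82, Alox5ap, Fgr, Ptgs2 and Arhgdib. Of these, Ptgs2, the inducible cyclooxygenase, had a small difference, from 24.3 to 8.81 (-1.37). Cd48 had the largest, from 21.1 to 3.52 (-2.29).

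Innate sensors had a median of -1.72 over 27 genes, all at least 2-fold lower. Ifih1, the double-stranded RNA sensor MDA5, had both the strongest signal and the largest difference, from 32.9 to 5.89 (-2.30), and had an inhibitor interval. Nlrp3, the inflammasome sensor, had 31.1 and 6.57, and Nod2, a sensor of bacterial cell walls, 27.2 and 6.95, and both were called in both libraries. Tlr7 had the smallest difference, from 10.5 to 4.72 (-1.01).

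Among chemokines and cytokines, 22 of 23 genes were at least 2-fold lower, with a median of -1.69. The 4 called with inhibitor were all cytokine genes. Tnfsf13b, the B cell survival factor BAFF, had 26.6 with vehicle and 6.81 with inhibitor, Il15 had 26.4 and 8.98, Osm had 26.3 and 7.43, and Ebi3 had 22.7 and 7.11. Cxcl10, an interferon-induced chemokine, had the largest difference, from 22.4 to 4.36 (-2.12), and was not called with inhibitor. Il23a was the exception, at 12.5 and 6.03 (-0.94).

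Of 29 cytokine and chemoattractant receptor genes, 28 were at least 2-fold lower, with a median of -1.68. Tnfrsf1a had 41.2 with vehicle and 10.3 with inhibitor, and C5ar1, a receptor for complement C5a, had 30.8 and 7.05. Csf3r, the receptor for granulocyte colony-stimulating factor, had 18.6 and 5.16, the second C5a receptor C5ar2 had 18.5 and 5.69, and Csf2rb, the shared beta chain of the GM-CSF receptor, had 15.1 and 5.11. All 5 had intervals in both libraries. P2ry13, an ADP receptor, had the largest difference, from 14.2 to 2.22 (-2.24). Cxcr3 was the only gene of the list with a higher value with inhibitor, 10.8 against 11.6, in a region of 377 bp called with inhibitor alone.

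Lectin, Fc and immunoglobulin-like receptors had a median of -1.62 over 40 genes, of which 39 were at least 2-fold lower. The adaptor genes Tyrobp (37.4 with vehicle, 8.99 with inhibitor) and Fcer1g (25.6 and 6.50) and the inhibitory receptor gene Cd33 (23.8 and 6.35) were those called with inhibitor. Fcgr1, the high-affinity IgG receptor, had the largest difference of the list, from 24.0 to 2.70 (-2.76), in a region whose midpoint lay at -7466 bp from the start, upstream being negative. The third adaptor, Hcst, had the smallest, from 10.98 to 5.61 (-0.86).

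Granule and alarmin genes, many but not all of them typical of neutrophils and their precursors, had a median of -1.60. Of the 33 genes, 27 were at least 2-fold lower (81.8%). S100a6 was strongest, from 24.9 to 5.14 (-2.07), and the chitinase-like gene Chil1 had the largest difference, from 21.6 to 3.69 (-2.27). Camp, the cathelicidin gene, had 21.2 and 5.72 at its start, and Cd177, a neutrophil surface protein gene, had 21.3 and 6.16. The cytosolic NADPH oxidase subunit genes Ncf1 (22.7 and 6.60) and Ncf4 (21.8 and 6.38) were called in both libraries, as were Camp, Cd177, Padi4 and Hp. The 6 genes less than 2-fold lower were Mmp9 (13.7 and 7.27), Mpo (10.9 and 5.61), Anxa2 (10.96 and 5.52), Bpi (11.8 and 5.58), Chil3 (10.8 and 4.93) and Slpi (11.8 and 5.43). Their vehicle signals lay under the list median of 14.8, and their inhibitor signals lay above the list median of 5.14 except for Chil3. Picking genes by a small difference favours such values, so this is not a separate observation.

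The myeloid transcription factor genes that had a region without an island numbered 27, of which 20 also had a region with one. All 27 were at least 2-fold lower, with a median of -1.56. Spi1, which encodes PU.1, was strongest, from 40.6 to 8.62 (-2.11), in a region centred at -10979 bp from the start. Cebpe, a factor of granulocyte maturation, had 27.3 and 8.06 at its start. The regions of Egr1, Irf1 and Fos, called in both libraries, were centred upstream too, with 28.2 and 8.18, 27.9 and 6.69, and 26.8 and 5.81. Irf5 had the largest difference, from 25.9 to 4.56 (-2.28), and Bcl3 the smallest, from 10.6 to 4.52 (-1.07).

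Ribosomal and housekeeping genes had 11 members with a median of -1.48, and the start was spanned in 1 of them, Rpl4. Rpl4 was strongest, from 30.1 to 5.80 (-2.20), and was called in both libraries.

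The genes of the sort markers were served by regions without an island where they had a promoter region. Ptprc (CD45) had 17.8 with vehicle and 3.51 with inhibitor, Ly6c2 17.0 and 3.93, Ly6g 15.2 and 5.06, and Itgam (CD11b) 12.8 and 7.03. Adgre1, which encodes the F4/80 antigen that the sort excluded, had 12.8 and 3.70 at its start. Ly6c1 had none. None of these 5 was called with inhibitor. All 11 neutrophil markers, 3 of 7 monocyte markers and 7 of 9 mature macrophage and dendritic cell markers had such a region. Of markers of other cells, 4 of 12 for T, B and NK cells (Cd3d, Cd3g, Cd79a and Cd79b, between 10.1 and 23.1 with vehicle), 2 of 16 for endothelium, fibroblasts and epithelium (Kdr and Krt8) and 1 of 14 for erythroid cells and megakaryocytes (Gp9) did. The B cell marker Ms4a1 had none.

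Immunoglobulin loci contributed 12 regions, and those of the constant genes Ighg2c and Igkc were among the 10 strongest members. Ighg2c had 60.5 with vehicle and 20.1 with inhibitor, with peaks of 267 and 83. Igkc had 60.1 and 25.3, with peaks of 195 and 81. Both were called in both libraries, as was the region of Ighm with 22.3 and 6.09. The constant gene Ighg3 had 11.9 with vehicle, under the member median, and a log2 difference of -1.37. These vehicle and inhibitor peaks of Ighg2c were the highest of all regions of the table. The 9 regions other than those of Ighg2c, Igkc and Ighm had vehicle averages between 9.77 and 30.0. As given above, Cd79a and Cd79b had a region and Ms4a1 had none; the part of B lineage cells in these values was not tested.

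MicroRNA genes are short, and 71 had a region without an island within reach of their start. Mir142 and Mir21a are described because their products are abundant in blood and myeloid cells, and were chosen after their values were seen. The mature sequences (RefSeq, GRCm38.p6) are given 5′ to 3′ with the seed, bases 2 to 8, in capitals.
mmu-miR-142a-5p: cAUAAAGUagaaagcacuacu
mmu-miR-142a-3p: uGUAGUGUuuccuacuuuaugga
mmu-miR-21a-5p: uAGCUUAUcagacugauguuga
The seeds differ, so these products form no shared-seed group. The region that spanned the start of Mir142 had 39.9 with vehicle and 9.58 with inhibitor, with peaks of 89 and 20, and was called in both libraries. Regions centred at -6646 and -2372 bp from that start had 37.7 and 9.12, and 21.7 and 7.08. Mir21a lay in a region of 14156 bp with 23.4 and 4.81, called with vehicle alone. The log2 differences were -1.95 at the start of Mir142, -1.94 and -1.49 upstream of it, and -2.07 at Mir21a.

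Other strong regions lay at few genes. The pair at Btbd19 and Tctex1d4, neighbouring genes with overlapping promoters, had 82.3 with vehicle and 21.0 with inhibitor, and 70.5 and 16.9. Neat1, the long non-coding RNA on which nuclear paraspeckles form, had 3 of the 10 strongest regions, with vehicle averages of 53.8, 58.4 and 59.6 and inhibitor averages of 16.1, 17.4 and 12.97. Mknk2, a kinase of the translation factor eIF4E, had 59.5 and 15.0, Gm19955 had 55.1 and 15.1, and Slc15a3, a lysosomal transporter gene, had 51.7 and 11.2. All but Slc15a3 and the immunoglobulin regions had an interval called with inhibitor alone, although their vehicle signal exceeded their inhibitor signal in each case. Of the 19 members without a vehicle call, 9 were lower with inhibitor, and 7 of these 9 had vehicle averages of at least 50. In such regions the call and the signal thus point in different directions.

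Among members called with vehicle and of at least median vehicle signal, the largest differences were at Ncoa1 and the genes below, none of them called with inhibitor. At Ncoa1 the average went from 26.8 to 2.10 and the peak from 46 to 3, a log2 difference of -3.16. Apart from Fcgr1 and Oas1a, the next in this set were Lgmn, which encodes the lysosomal protease legumain (16.6 to 1.64, -2.74), A930006K02Rik (15.1 to 1.44, -2.72), Cd300ld3, an immunoglobulin-like receptor gene (16.1 to 1.68, -2.67), Ighv5-6 (17.1 to 1.89, -2.64) and the lysosomal exonuclease gene Pld4 (26.0 to 3.54, -2.57). The smallest in the same set were at LOC101055764 (16.3 to 10.8, -0.56), Gsg1 (14.4 to 8.23, -0.74) and Tm7sf2, a sterol reductase gene (15.0 to 8.46, -0.76). F630040K05Rik, Mmp9, Rwdd3, Rab19 and Khk followed, between -0.81 and -0.87.

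The 10 regions with a higher signal with inhibitor were short, 271 to 478 bp, and were all called with inhibitor alone. These regions entered the table through that call, so their higher signal with inhibitor was partly set by the selection. Their vehicle averages ran from 4.40 to 10.8 and their inhibitor averages from 11.5 to 13.2. The 2 past 2-fold were at Bcas1os2 (4.40 and 12.8, 1.35) and Gm6682 (4.50 and 12.0, 1.24). The others included a region centred at -2330 bp from the start of Camp (6.38 and 11.5, 0.76), separate from the start-spanning region of that gene, and regions at Apc2 (0.87), Dlx6os2 (0.70), Ddx54 (0.55), Zbtb8b (0.49) and B230344G16Rik (0.34).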

How the data were processed

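H3K27ac ChIP-seq libraries of sorted mouse MDSC were analysed from the authors' deposited table of merged called intervals, 1 vehicle and 1 inhibitor library; the pooled input was not used here. Per the labels' protocols, chromatin was fixed with formaldehyde and a constant amount of Drosophila chromatin was added. The submitters' processing notes name BWA, SICER and the builds hg19 and dm3; no source used here states versions or settings. Region coordinates match the mouse assembly GRCm38. The deposited signal is fragment pileup, as an average and a peak per region; the depth is unknown, and no source used here states whether the authors scaled it by the spike-in. The deposited Present column records whether an interval was called.

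From these, log2(average + 1) differences, inhibitor minus vehicle, were computed (Python 3.11.15, pandas 2.3.3, numpy 2.4.6); 2-fold means a difference of 1 on that scale. With 1 library per group no test was made. Gene symbols of the 3280 genes served matched a current symbol in 2949 cases and an older one in 202; 129 were unmatched. Promoter and microRNA sequences came from RefSeq tables. Each gene took its member region with the highest mean signal. Named were the 10 strongest members, the 8 largest and smallest differences among members called with vehicle at or above the median vehicle signal, up to 8 higher members, the extremes of each list and its members called with inhibitor, and the sort markers; others were chosen after their values were seen, as were the immunoglobulin, microRNA and longest regions. Some genes that meet this rule are not reported here. Members and gene lists were chosen with earlier results of these data known. The summaries were tested on simulated data. Alternatives were peak signal, other pseudocounts, recentring, signal classes and stricter membership.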

Additional observations from a re-analysis of the deposited data

How the results depend on the processing

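No paired analysis was possible because each treatment had 1 library, so leaving out a replicate was not possible either. The median log2 difference of the 3631 regions, -1.57, was -1.54 with peak signal, -1.79 with no pseudocount, -1.60 without weak regions, -1.66 for regions spanning a start, -1.59 without genes that also had an island region and -1.56 without regions at CpG-dense windows. Recentred on the median of all regions it reversed, to 0.041. The count at least 2-fold lower was then 9, and it was 2250, 1242 and 2054 under the 3 subsets by signal, start and island region; these subsets hold fewer regions.

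The median without an island minus that with one, 0.20, was 0.36 with peak signal, 0.16 with no pseudocount, 0.19 without weak regions, 0.13 for start-spanning regions, 0.195 with a promoter count of 1, 0.18 without genes that also had an island region, and 0.21 without CpG-dense windows. It reversed within classes of vehicle signal (-0.12) and of mean signal (-0.015), and was 0.29 within classes of inhibitor signal, which like the CpG-dense subset were chosen after seeing the data. Against regions with neither feature, -0.053 became -0.085 with peak signal, -0.058 with no pseudocount, -0.082 without weak regions, -0.076 without genes with an island region, and -0.016, -0.020 and -0.090 within classes of vehicle, mean and inhibitor signal. The number of lists under the median of all genes was 11 of 17 and between 8 and 11 otherwise. The called counts stayed within 1.5 times of 228.

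Recentring changed the sign of 7 list medians: granule 0.0045, transcription factors 0.048, housekeeping 0.13, sort markers 0.048, macrophage and dendritic cell 0.048, endothelial to epithelial 0.53, and erythroid 0.56. Of the named regions at least 2-fold lower, it did so for Ighg2c 0.063, Igkc 0.39, the nearer upstream region of Mir142 0.11, Padi4 0.24, Hp 0.13, Il15 0.15, Ebi3 0.058, Csf2rb 0.21, C5ar2 0.061, Oasl1 0.53, Tlr7 0.60, Ly6g 0.19, Rac2 0.024, Adgre1 0.048, Alox5ap 0.13, Ptgs2 0.24, Tap2 0.093, Cd1d1 0.51, Bcl3 0.54, Cd79b 0.32, Kdr 0.28, Gp9 0.56 and C1qa 0.37. By construction it changes the sign of every lower region less negative than -1.61, including all named regions that were less than 2-fold lower. No named region changed sign under peak signal or another pseudocount. The depth behind each signal is unknown.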

Other observations

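The regions without an island included the longest of the whole table. It spanned 20440 bp at Morrbid, a long non-coding RNA gene known in mouse for its part in the lifespan of short-lived myeloid cells, with 22.9 with vehicle and 6.24 with inhibitor. The next lay at Krt80 (17480 bp, 24.8 and 6.25), at Ifitm5 and Ifitm2 (16470 bp, 32.5 and 9.37), at Gm17749 (16065 bp, 32.9 and 7.16) and at Cyth4 (14164 bp, 22.2 and 6.41). All 5 had intervals in both libraries, and their log2 differences ran from -2.05 to -1.65.

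Several genes had many separate regions without an island within reach of their start. Mir26b and LOC100861953 had the most, 6 each. Neat1, Fcnb (a ficolin of granulocytes), Lta (lymphotoxin alpha) and P2ry12 (an ADP receptor) had 5 each, as did Ctdsp1, F12, Gm4262 and LOC101055769. Genes with 4 included Tnf, Ngp, Padi4, Csf3r, Cd177 and Selplg, and also Clptm1, Dhx38, Myl6, Reep3 and Zdhhc7. These regions share a locus and are not replicates of each other.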
